A study of Rattus norvegicus with 15 samples.

Results

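The cytosolic ribosomal protein genes were examined in mammary tumours of female Sprague-Dawley rats, on 15 single-colour (Cy3) Agilent rat arrays. They were taken as the genes whose current RefSeq symbol begins with Rpl or Rps and a digit, with Rpsa and the stalk genes Rplp0, Rplp1 and Rplp2, leaving out the S6 kinase genes and symbols marking pseudogenes. Of 276 such symbols, many of them near-identical copies, 80 had a matched probe on the array, and 77 genes passed the filter (a signal well above background on 5 or more of the 15 arrays) and were tested, 48 of the large subunit and 29 of the small one, among 21011 tested probes. The brightest probe of each of the 77 was well above background on all 15 arrays. The 3 genes left out were Rps12l4, Rpl39l1 and Rpl3l, seen on 0, 1 and 4 arrays, and Rpl26, Rpl37 and Rps9 were among those with no matched probe.

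The tumours came from 3 diet groups of 5. Dams, 16 per group, ate chow with 3 mg of zinc per kg (deficient), 35 mg per kg (adequate, which the labels call the negative control) or 180 mg per kg (supplemented) from day 10 of gestation to weaning at postnatal day 21, and their daughters ate that chow to day 51. Every group then received the carcinogen 7,12-dimethylbenz[a]anthracene (DMBA, 50 mg/kg), ate adequate chow and gave tubular or papillary tumours at 180 days, so that all 15 tumours, controls included, were carcinogen-induced and none was taken during zinc deprivation. Nothing in the labels states that tumours sharing a diet were from different rats or litters. The p-values therefore refer to the variation among these 15 tumours alone.

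A ribosome carries a fixed set of ribosomal proteins on ribosomal RNA, in a small subunit, which decodes the messenger RNA, and a large subunit, which forms peptide bonds. The messengers are among the most abundant of growing cells, and in vertebrates most begin with a C followed by a pyrimidine tract, the 5′ terminal oligopyrimidine (TOP) element, through which growth signalling adjusts their translation. Several of the proteins carry a zinc-binding finger, and some of the free proteins bind the ubiquitin ligase Mdm2 when ribosome assembly fails. These properties are background and were not measured here, apart from the messenger levels and the start sites.

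The RefSeq promoter table (build GRCr8) held a window for 61 of the 77 genes. The stretches from 15 bases before the annotated start to 15 bases from it are shown, 5′ to 3′ on the gene's strand, for genes to which the diet comparisons and the spread between tumours return below. Capitals mark the annotated start base and the 4 bases after it.
Rps7: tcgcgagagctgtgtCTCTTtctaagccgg
Rpl35a: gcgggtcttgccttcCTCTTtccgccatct
Rpl31: ccacaatccctcgcgCCTTTcctttccaac
Rpl37a: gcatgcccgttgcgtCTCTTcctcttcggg
Rps26: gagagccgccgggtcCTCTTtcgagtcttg
Rpl36a: ccgcctataaacttcCGTTGctgctctagc
Rps6: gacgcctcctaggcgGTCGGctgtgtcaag
Rpl13a: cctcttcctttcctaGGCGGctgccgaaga
Rps12: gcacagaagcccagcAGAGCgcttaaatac

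The first 5 of these begin with a C and 4 further pyrimidines at the annotated start. The other 4 do not, although Rpl36a, Rps6 and Rpl13a hold a C with 4 further pyrimidines within 15 bases of the annotated base, and Rps12 does not. The windows lie at chr6:50999431-50999460 (minus strand) for Rps7, chr11:81235007-81235036 (minus) for Rpl35a, chr9:49143096-49143125 (plus) for Rpl31, chr9:81748076-81748105 (plus) for Rpl37a and chr7:1643390-1643419 (minus) for Rps26. Those without the element at the annotated base lie at chrX:102059434-102059463 (plus) for Rpl36a, chr5:106420526-106420555 (minus) for Rps6, chr1:104748899-104748928 (minus) for Rpl13a and chr1:23500060-23500089 (plus) for Rps12. Each holds the promoter's last bases and the first transcribed bases of the gene.

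Over the 61 genes, 23 (37.7%) had a C at the annotated start followed by 4 bases that were each C or T, against 881 of all 33465 windows in the table (2.63%). A pyrimidine run of at least 8 bases that included the start was found in 30 of them (49.2%), against 4.43% of all windows. Anywhere within 15 bases of the start, a C and 4 pyrimidines were found in 51 (83.6%), against 39.1% of all windows. The longest run, 21 bases, was that of Rps23, which encodes a protein of the decoding centre. The motifs CTTTCC and CCGGAAG were searched on both strands of the whole window, from 250 bases before the start to 50 from it. CTTTCC was found in 31 genes (50.8%) against 26.4% of all windows, and it can overlap the pyrimidine run. CCGGAAG, a sequence of the kind ETS-family factors bind, was found in 18 (29.5%) against 8.75%, and TATAAA in 6 (9.84%) against 14.2%. A match is a stretch of letters and does not show that a factor binds there.

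All diets were represented on each of the 4 slides. The arrays differed in brightness, with between 13854 and 24009 of 43379 non-control spots well above background. The 3 dimmest were deficient replicate 4 (13854), control replicate 2 (16214) and deficient replicate 1 (16679), and no supplemented array was among them. The level of a gene is the log2 processed signal relative to the array's 75th percentile, and levels of different probes cannot be ranked against each other. On this scale the mean levels of the 77 genes ran from 3.29 for Rplp0 to 10.30 for Rplp1, so nearly all lay in the upper part of the range of brightness. As a check of the tissue, 8 of 9 luminal epithelial markers were tested, with a mean level between 4.11 and 4.64 in the 15 tumours. Elf3 was not tested.

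No ribosomal protein gene passed the test between diets. In limma with Benjamini-Hochberg adjustment over all 21011 probes, 0 members and 0 probes (0%) passed in deficient minus control. The same counts, 0 and 0 (0%), held for supplemented minus control, for supplemented minus deficient, for the F test over the 3 diets and for the slope over log2 dietary zinc. The lowest adjusted p of a member was 0.987, 1.00, 0.695, 0.990 and 0.587 in that order. At an unadjusted p under 0.05, 4 members were higher and 0 lower in deficient than in control tumours, where 1.87% of all probes were higher and 2.05% lower. Supplemented and control tumours gave 0 members either way, against 0.828% of probes higher and 1.15% lower. Supplemented and deficient tumours gave 0 members higher and 6 lower, against 3.31% and 3.74% of probes. The F test had 1 member at that level, Rpl23a, against 4.03% of probes, and the slope had 7, all of them lower with more zinc, against 7.70% of probes. For a single member the 95% interval of a difference reached 0.37 log2 units to either side (the median over members), a factor of 1.29.

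Although none passed, the members lay to one side of 0 in the comparisons with the deficient group. In deficient minus control, 67 of the 77 had a positive log2 difference, against 49.3% of all tested probes, and the median was 0.18 (from -0.17 to 0.56), against -0.005 over all probes. In supplemented minus deficient, 3 of the 77 were positive, against 49.9% of probes, and the median was -0.19 (from -0.52 to 0.24), against -0.001. In supplemented minus control, 31 of the 77 were positive, against 48.8% of probes, and the median was -0.024 (from -0.33 to 0.29), against -0.007. The same 15 tumours enter all 3 comparisons, so these medians are not independent of one another. Both subunits gave about the same values, with medians in deficient minus control of 0.17 for the 48 large-subunit genes, 42 of them positive, and 0.19 for the 29 small-subunit genes, 25 of them positive. Fewer cells of a type that is rich in these messengers and less messenger per cell cannot be told apart in such bulk samples.

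**Figure D1:**
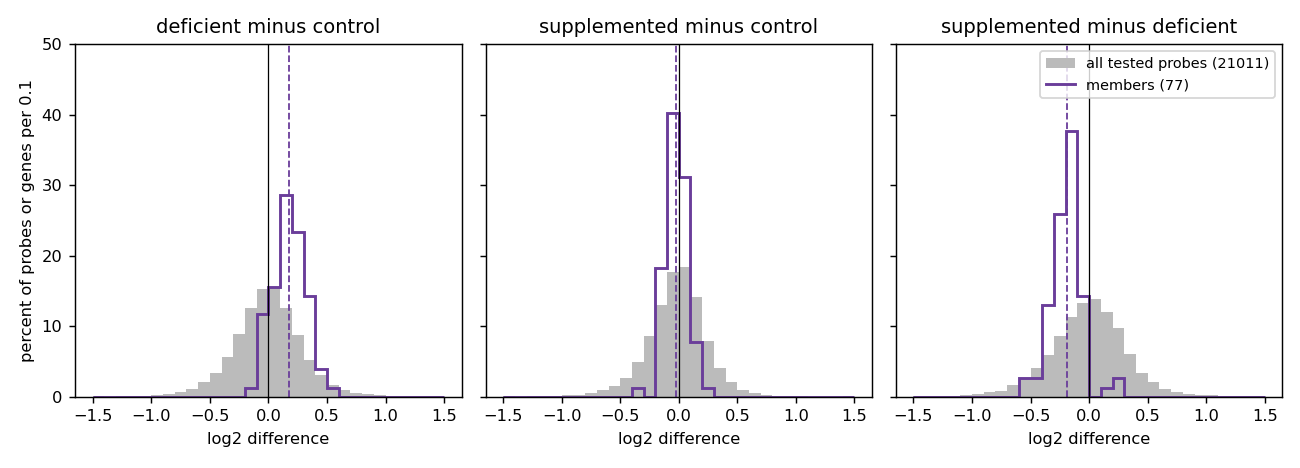
The share of the 77 ribosomal protein genes (outline) and of all 21011 tested probes (grey) is plotted in steps of 0.1 against the log2 difference between diets, with a dashed line at the median of the genes. The genes sit above 0 in deficient minus control (median 0.18), around 0 in supplemented minus control (-0.024) and below 0 in supplemented minus deficient (-0.19), while all probes centre near 0 in each panel.

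The size of these medians depended on how the arrays were put on a common scale. With quantile normalization the median was 0.061 in deficient minus control and -0.057 in supplemented minus deficient, with 51 and 24 of 77 members positive. Normexp background correction followed by quantile normalization gave 0.066 and -0.073, and the log2 values that the authors deposited gave 0.052 and -0.13. Limma's array weights gave 0.085 and -0.073. The sign of both medians was the same under every alternative tried, whereas the median of supplemented minus control changed sign with normexp (0.002) and with slide as a fixed block (0.012). Bright probes outside the set, 658 probes with a mean level above 5, had medians of 0.020 in deficient minus control and -0.031 in supplemented minus deficient. When each array was centred on those probes, the members' medians were 0.15 and -0.16.

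**Figure D2:**
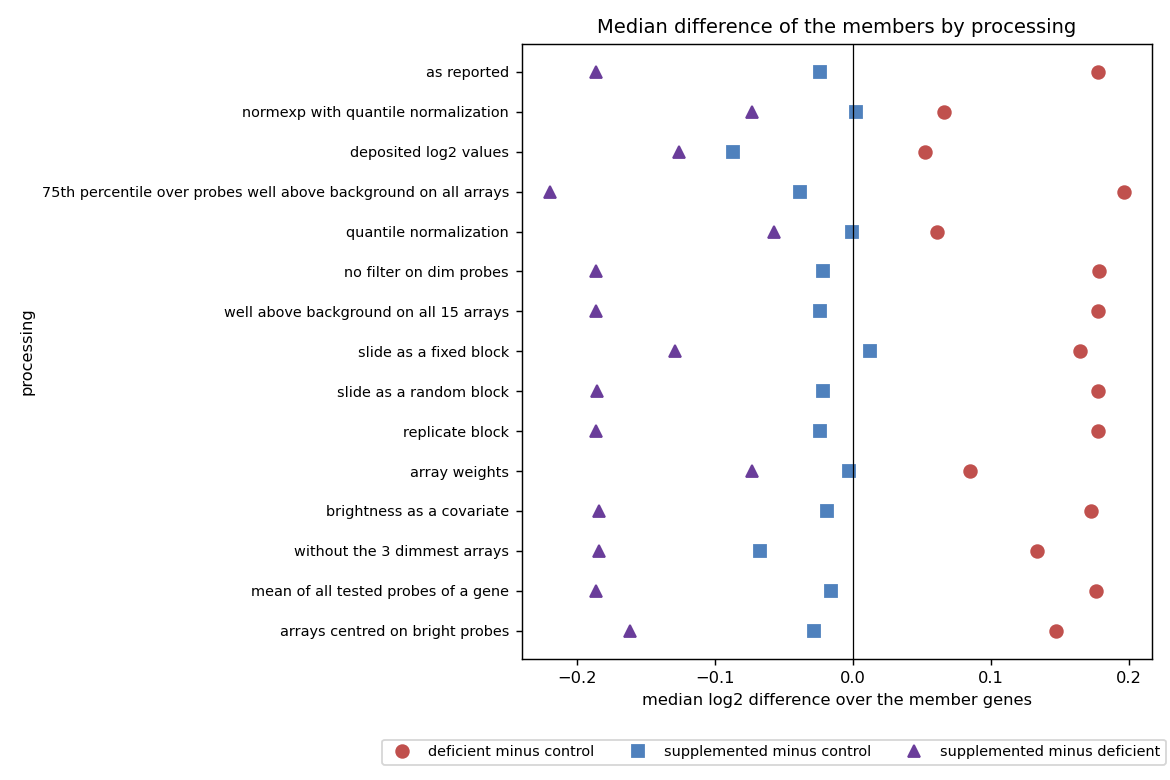
The median log2 difference over the ribosomal protein genes is plotted on the horizontal axis for each processing of the arrays, with circles for deficient minus control, squares for supplemented minus control and triangles for supplemented minus deficient. Circles stay above 0 (0.052 to 0.20) and triangles below it (-0.22 to -0.057), and both lie closest to 0 with quantile normalization, normexp, array weights or the deposited values.

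The shift also rested unevenly on single tumours. Measured as the median over the 77 genes of the level minus the gene's own mean over 15 tumours, deficient tumours lay at 0.14, -0.09, 0.36, 0.12 and 0.08 (replicates 1 to 5), control tumours at -0.01, -0.28, -0.06, -0.06 and 0.21, and supplemented tumours at 0.14, -0.24, -0.11, 0.05 and -0.19. All 3 groups overlap, with 0.12 ± 0.16, -0.040 ± 0.17 and -0.070 ± 0.16 (mean ± SD, n = 5 each). Deficient replicate 3 was the highest tumour, also with quantile normalization (0.16), normexp (0.22) and arrays centred on bright probes (0.31). The lowest was control replicate 2 on this scale and with quantile normalization (-0.12), deficient replicate 1 with normexp (-0.12) and supplemented replicate 3 with bright probes as the centre (-0.15). Deficient replicate 1 turned negative with quantile normalization (-0.08) as well. Without deficient replicate 3 the median difference was 0.12 in deficient minus control and -0.14 in supplemented minus deficient, without control replicate 2 the former was also 0.12, and without control replicate 5 it was 0.24. In supplemented minus control the median turned positive without control replicate 5 (0.047), supplemented replicate 2 (0.033) or supplemented replicate 5 (0.026).

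**Figure D3:**
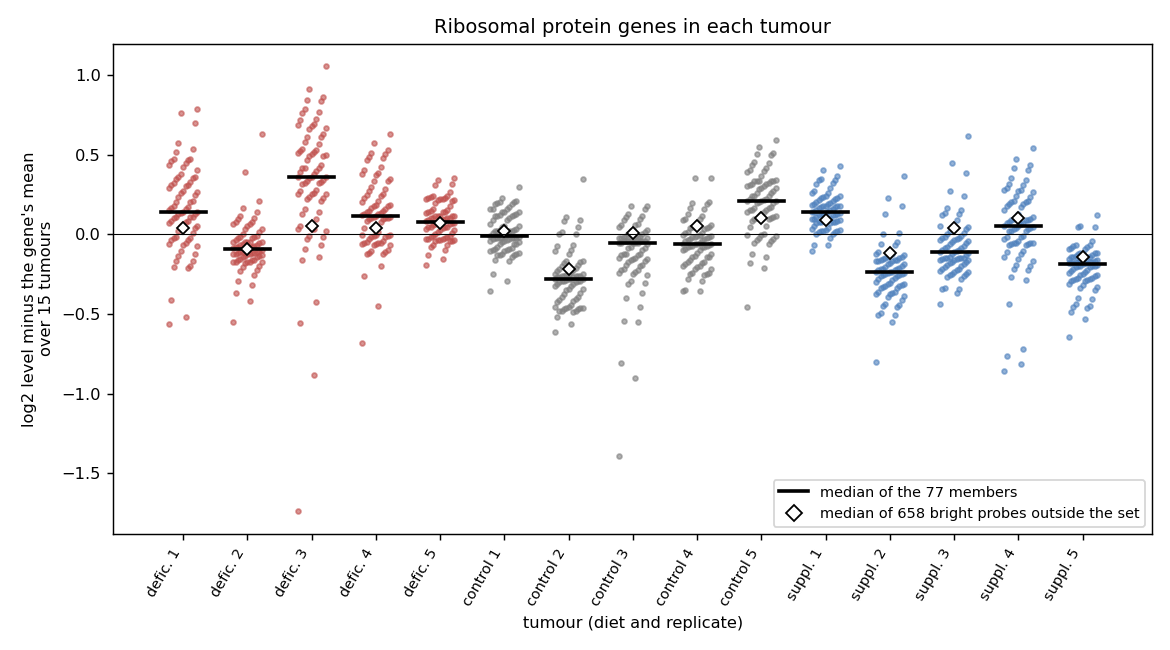
Each point is 1 of the 77 genes in 1 tumour, as its log2 level minus the gene's mean over 15 tumours; bars are the median of the genes and diamonds the median of 658 bright probes outside the set. Deficient replicate 3 has the highest median (0.36) and also the lowest single point, Rps26 at -1.74, and the medians of the 3 diets overlap.

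Within the slides, the median of deficient minus control was positive on each. It was 0.17, 0.22, 0.34 and 0.035 on slides 1 to 4, and with quantile normalization, which made slide 1 negative, -0.10, 0.15, 0.12 and 0.12. Supplemented minus deficient was -0.017, -0.090, -0.23 and -0.29, and with quantile normalization 0.18, -0.059, -0.11 and -0.18. Supplemented minus control was 0.16, 0.10, 0.17 and -0.28, and with quantile normalization 0.084, 0.086, -0.018 and -0.090. Each slide held 1 or 2 tumours of a diet, so these are values without a test.

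Of the markers of luminal and myoepithelial cells, adipocytes, fibroblasts, immune cells, skeletal muscle, endothelium and erythrocytes, limma called 0 in each comparison. The luminal, myoepithelial and fibroblast markers had medians of -0.057, -0.18 and -0.24 in deficient minus control. In supplemented minus deficient their medians were -0.006, -0.009 and 0.10. Immune markers had 0.095 and -0.21, muscle markers 0.29 and -0.069 and endothelial markers 0.40 and -0.43, with 6, 3 and 2 genes tested. The endothelial gene Cdh5 was well above background on 7 arrays and the muscle genes Acta1 and Actn3 on 8 each. The endothelial and muscle medians thus partly hold levels at background. Pecam1, Tek, Vwf and Egfl7 of the endothelial list and Ckm, Myh4, Myh1, Mylpf, Tnnt3 and Pvalb of the muscle list were not tested. Adipocyte markers had 0.74 and -0.33 and erythrocyte markers 1.26 and -1.94, with 3 genes tested in each list. The 3 tested of 8 erythrocyte markers (Hbb, Alas2 and Ahsp) had a mean level of -0.83 to 1.30 in deficient tumours, -3.02 to -0.17 in controls and -2.72 to -1.85 in supplemented tumours. Alas2 and Ahsp were well above background on only 7 of the 15 arrays, so this mean partly holds levels at background, and they passed the filter through the arrays where they were high. Hbb, a globin gene well above background on all 15, stood at 3.12, 0.86, 1.30, 0.82 and 1.38 in deficient tumours and at 0.17, -1.62, -0.02, -0.75 and 0.01 in supplemented ones. Controls, at -1.81 to 2.08, overlapped both. The globin genes Hba1, Hba-a1 and Hba-a2 and the membrane gene Slc4a1 were among those not tested. The 3 tested of 8 adipocyte markers had medians of -0.24, -0.70 and -0.84 in deficient, control and supplemented tumours, with ranges that overlapped. Of these, Adipoq was well above background on 6 arrays, and Plin1, Cidec, Lep, Fabp4 and Lipe were not tested. Their part in the members' medians was not tested.

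In deficient minus control Rpl36a, Rps6, Rps7 and Rpl35a were among the 5 higher members with the smallest p. Rpl36a, a large-subunit protein at the exit site for transfer RNA, had levels of 7.13, 6.84, 7.69, 7.27 and 6.89 in deficient tumours and 6.90, 6.45, 6.70, 6.68 and 6.97 in controls. The difference was 0.42 (95% interval 0.026 to 0.82, limma adjusted p = 0.987), and 2 deficient tumours lay within the range of the controls. With the deposited values it was 0.17. Rps6, the small-subunit protein phosphorylated by S6 kinases, stood at 9.80, 9.28, 9.75, 9.56 and 9.64 in deficient tumours, at 9.45, 8.96, 7.94, 9.27 and 9.62 in controls and at 9.70, 9.22, 9.29, 9.29 and 9.19 in supplemented tumours. Its difference of 0.56 (0.014 to 1.11, adjusted p = 0.987) rested in part on control replicate 3, by far the lowest of the 15, and was 0.28 without it.

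Rps7, one of the proteins that bind Mdm2, stood at 8.08, 7.57, 8.34, 7.79 and 7.58 in deficient tumours against 7.69, 7.18, 7.67, 7.43 and 7.50 in controls. Here 2 deficient tumours lay within the control range, and the difference was 0.38 (0.002 to 0.75, adjusted p = 0.987). Rpl35a, a large-subunit protein mutated in some patients with Diamond-Blackfan anaemia, stood at 6.38, 6.24, 7.09, 6.64 and 6.34 in deficient tumours, against 5.88 to 6.41 (median 6.29) in controls. In this gene 3 deficient tumours lay within the control range, and the difference was 0.36 (-0.018 to 0.74). Without a single array or with other processing, the differences of these 4 genes stayed positive, the lowest being 0.28, 0.17, 0.16 and 0.18 for Rps6, Rpl36a, Rps7 and Rpl35a. On the other tested probe of Rpl35a the difference was 0.17, and the 2 probes did not follow each other (r = 0.01, diet means removed). Deficient replicate 3, highest on the brightest probe, read 5.21 on the other, against 5.03 to 5.68 in the remaining deficient tumours.

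On the other side lay 10 members, each with an interval that included 0. Those with the smallest p were Rpl19 (-0.079), Rps26 (-0.17), Rpl15 (-0.059), Rpl36al1 (-0.065) and Rps27 (-0.063). Rps26 turned positive, at 0.23, with array weights. Rpl36al1 turned positive, at 0.13, without deficient replicate 3. The members just on either side of 0 were Rpl18 at -0.002 and Rpl28 at 0.004.

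In supplemented minus deficient the member with the smallest p was Rpl23a, a protein at the mouth of the exit tunnel of the large subunit, where the signal recognition particle docks. Its levels were 5.46, 5.44, 6.38, 5.32 and 5.56 in deficient tumours, 5.52, 4.88, 5.20, 5.23 and 5.32 in controls and 5.22, 5.14, 5.15, 5.26 and 4.79 in supplemented tumours. Every supplemented tumour lay below every deficient one, the only member with such a gap in any of the 3 comparisons. Groups failed to overlap for 0.391% of probes in deficient minus control, 0.353% in supplemented minus control and 1.50% in supplemented minus deficient, so 1 of 77 is near the background. The difference was -0.52 (95% interval -0.95 to -0.095, limma adjusted p = 0.695). It was -0.33 without deficient replicate 3, -0.53 with quantile normalization, -0.58 with normexp and -0.57 with the deposited values, so this gene did not shrink with the scaling as the median of the members did.

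Other members with a small p in that comparison were lower in supplemented tumours as well. Rps15a, of the small subunit, differed by -0.43 (-0.82 to -0.045), with 8.36, 7.95, 8.49, 8.27 and 8.16 in deficient tumours and 8.14, 7.83, 8.04, 7.28 and 7.80 in supplemented ones. On its other tested probe the difference was -0.13, and supplemented replicate 4, at 6.33, was not the lowest of its group. Rpl38, a large-subunit protein whose loss in mice alters translation of Hox messengers, stood at 8.56, 8.01, 8.53, 8.12 and 8.14 against 8.05, 7.57, 7.88, 8.05 and 7.74, a difference of -0.41 (-0.79 to -0.039). In both, 2 supplemented tumours lay at or above the lowest deficient tumour. Rps12 differed by -0.38. Rps14, whose loss underlies the anaemia of the 5q- syndrome, differed by -0.39, and the adjusted p of these 4 was between 0.701 and 0.708 in limma. With normexp the difference of Rps12 was -0.10, and that of Rpl38 -0.28.

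Only 3 members were higher in supplemented than in deficient tumours. They were Rps26 (0.24), Rpl36al1 (0.22) and Rpl4 (0.12, 95% interval -0.22 to 0.44). Rpl4, a large-subunit protein that lines the exit tunnel, kept its sign under every alternative (0.055 to 0.20). Rpl36al1 was 0.021 and Rps26 -0.17 without deficient replicate 3.

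Supplemented minus control had the smallest differences. Rps15, a small-subunit protein near the decoding site, had the lowest p. Its levels were 4.90, 4.34, 4.63, 5.08 and 4.40 in supplemented tumours and 4.91, 4.98, 4.90, 4.83 and 5.40 in controls, and 3 supplemented tumours lay below every control. The difference was -0.33 (-0.70 to 0.036, limma adjusted p = 1.00), and it was -0.44 to -0.24 over the alternatives. Rpl28, Rpl21, Rpl15 and Rpl12 followed on the lower side, at -0.18, -0.13, -0.11 and -0.15. On the higher side, Rps6 at 0.29 was the largest, and it was 0.014 without control replicate 3. Rpl4, Rpl36al1, Rpl36a and Rps25 differed by 0.14, 0.15, 0.12 and 0.10.

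**Figure D4:**
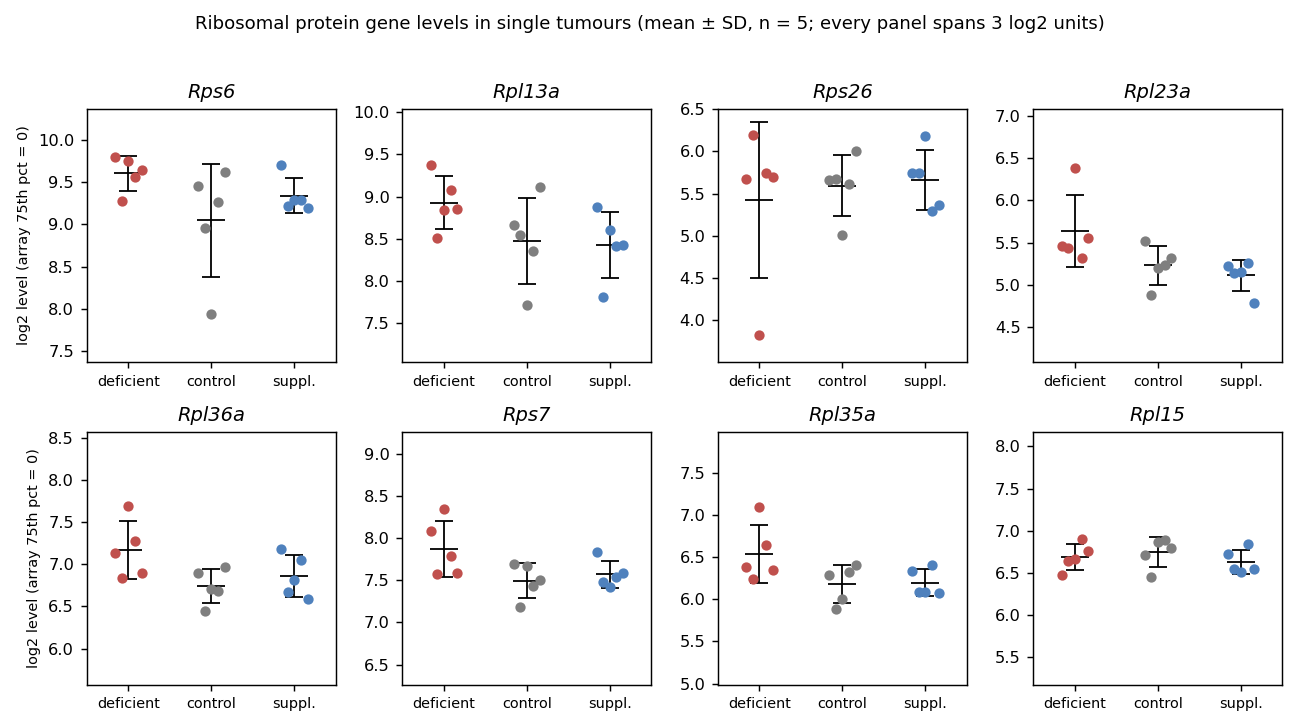
Log2 levels relative to the array's 75th percentile are plotted for 8 ribosomal protein genes, with 1 point per tumour, and the mean and SD of the 5 tumours of each diet in black. In Rpl23a every deficient tumour lies above every supplemented one; in Rps6, Rpl13a and Rps26 a single low tumour sets the spread of a group, and Rpl15 varies least.

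Between tumours of one diet, the members varied less than most probes on this scale. The median SD within a diet was 0.24 log2 units, against 0.39 over all tested probes, 0.31 over the 11470 probes that were well above background on all 15 arrays and 0.30 over the 658 bright probes outside the set. Of the 77 members, 72 lay below the median of all probes and 57 below that of the bright ones. The order against all probes turned under 2 alternatives: with normexp and quantile normalization the median SD was 0.23 for the members and 0.20 for all probes, and with the deposited values, whose normalization is not given in the sources used here, 0.28 and 0.22. With quantile normalization alone it was 0.19 and 0.40. Spread was therefore compared only as a description. The bright probes, taken by a mean level above 5, were not matched to the members by level.

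On the brightest probe of each gene, the least variable member was Rpl15, a large-subunit protein, with an SD of 0.16. Its levels were 6.48, 6.64, 6.67, 6.90 and 6.76 in deficient, 6.71, 6.45, 6.87, 6.89 and 6.80 in control and 6.72, 6.55, 6.51, 6.84 and 6.55 in supplemented tumours. The 15 tumours thus ran from 6.45 to 6.90, with the diets overlapping throughout. The other tested probe of Rpl15, far dimmer (mean level 1.32), had an SD of 0.45 and read 0.10 in deficient replicate 4. Rpl18 (0.17), Rpl29 (0.18), Rpl19 (0.18), Rps28 (0.18) and Rpl31 (0.19) were next. Other probes of these genes had an SD of up to 0.26 for Rpl18, 0.29 for Rpl29, 0.35 for Rpl19 and 0.31 for Rpl31. For Rps28 it was 0.17. The low spread thus describes the probes chosen.

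The most variable member was Rps26, a small-subunit protein at the channel by which messenger RNA leaves, with an SD of 0.61, higher than 81.8% of all tested probes. It stood at 5.67, 6.19, 3.82, 5.74 and 5.70 in deficient tumours, at 5.66, 5.67, 5.01, 5.62 and 6.01 in controls and at 5.74, 5.74, 6.18, 5.29 and 5.36 in supplemented tumours. Deficient replicate 3 lay 1.74 below the gene's mean while the median member of that tumour lay 0.36 above its own. The brightest probe of Rpl36al1, a gene that RefSeq names as a copy related to Rpl36a, was also lowest there (6.04, with 6.86 to 7.14 in the other deficient tumours). Its other tested probe, of like mean level (6.90), read 7.08 there and was lowest in deficient replicate 4 (5.74). In deficient replicate 3, Rpl35 and Rps27 lay 0.56 and 0.42 below their means. In the same tumour Rpl23a, Rps18 and Rpl3 lay 1.06, 0.91 and 0.87 above theirs. That tumour thus holds both the widest upward and the widest downward departures of the set.

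Rpl37al2, named as a copy related to Rpl37a, had an SD of 0.46, with 4.65 in control replicate 3 and 4.60 in supplemented replicate 4 as its lowest levels and 5.91 as its highest. Rps6 (SD 0.42) was set by control replicate 3, as described. Rpl13a, a protein that can leave the ribosome to silence inflammatory messengers, had an SD of 0.42, with 7.71 in control replicate 3 and 7.81 in supplemented replicate 2 as its lowest levels and 9.37 in deficient replicate 1 as its highest. Control replicate 3 was thus the lowest tumour for Rps6 and Rpl13a and near the lowest for Rpl37al2, while its median member lay only 0.06 below its mean. Rpsa, which is both a ribosomal protein and the precursor of a laminin receptor, ranged from 4.65 to 5.97 (SD 0.42), and Rpl3, of the peptidyl transferase centre, from 5.02 to 6.40 (SD 0.36). In both, deficient replicate 1 was the lowest and deficient replicate 3 the highest tumour. On the other tested probe of Rpsa the SD was 0.23 and deficient replicate 3 was again the highest (5.21). The lowest there was supplemented replicate 2 (4.15), with deficient replicate 1 at 4.67.

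**Figure D5:**
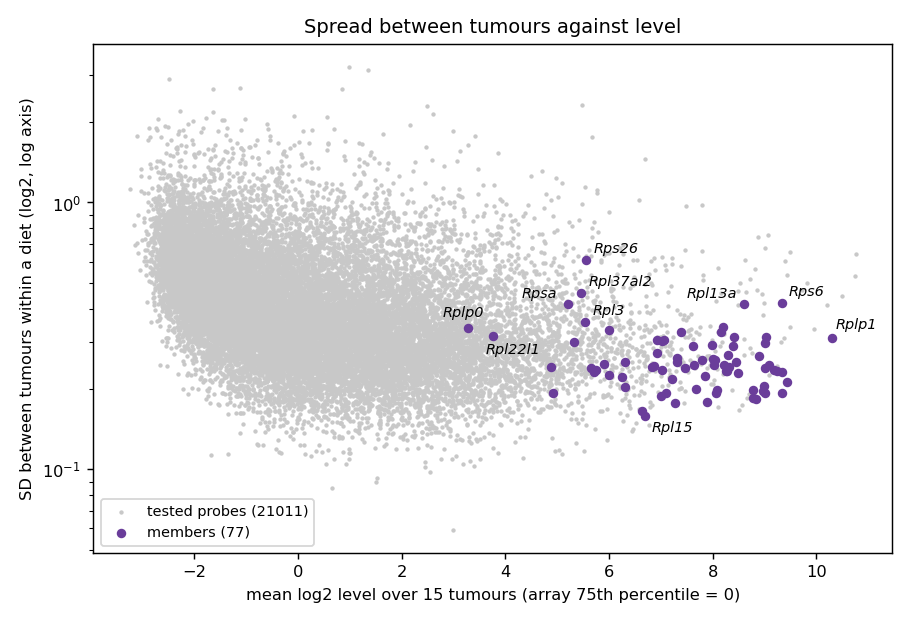
The SD between tumours of one diet (vertical, log axis, log2 units) is plotted against the mean level for all 21011 tested probes (grey) and the 77 ribosomal protein genes (purple), with 10 genes named. The genes lie at the right of the cloud, with a median SD of 0.24 against 0.39 for all probes, and Rps26 (0.61) stands above the others.

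Within a diet the members varied together from tumour to tumour, to a degree that the scaling changed. Over 2926 pairs of members, and 15 tumours with the diet means removed, the median Pearson r was 0.48 (0.21 to 0.69 between the quartiles), against 0.10 between bright probes outside the set. It was 0.25 with arrays centred on bright probes, 0.16 with quantile normalization and 0.11 with normexp, where bright probes gave 0.00 each time. All these values share the same 15 arrays and their scaling. On the 75th percentile scale the member with the highest median r with the others was Rpl11 (0.71), a protein that leaves with Rpl5 to bind Mdm2; with quantile normalization it stood at 0.30, below Rpl39 and Rps18 at 0.38. Lowest on the first scale were Rps26 (-0.31), Rpl36al1 (-0.19), Rpl22l1 (-0.11) and Rpl37al2 (-0.04), and on quantile-normalized values Rpl22l1 stood at 0.09.

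For 27 members more than 1 probe was tested, and these did not always follow each other. The lowest r between probes of a gene, after removing the diet means, had a median of 0.56 over the 27. The probes differed in sign for 10 genes in deficient minus control, for 9 in supplemented minus control and for 6 in supplemented minus deficient. Rps2, a protein at the entry of the messenger channel, had 4 probes with differences in deficient minus control of 0.006 for the brightest and 0.46, -0.14 and -0.27 for the others. Rpl21, of the large subunit, had 5 probes, of which 4 were highest in deficient replicate 3 and 1 was lowest there, at 5.43 against 5.99 to 6.47 in the other 14 tumours. For Rpl22l1 both probes were of like level (3.76 and 3.59), with differences of 0.043 and -0.14.

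The sign differed between probes in deficient minus control for Rpl13, Rps16, Rps28, Rpsa, Rpl29, Rpl19 and Rpl28 as well, and in supplemented minus control for genes that included Rps20, Rpl31, Rpl29, Rps15a, Rpl35a and Rpl15. Those in supplemented minus deficient also included Rpl28, Rpl15 and Rpl27. With the mean of all tested probes of a gene in place of the brightest, the median over members was 0.18 in deficient minus control and -0.19 in supplemented minus deficient. Processed copies of these genes are numerous and nearly identical, so a probe may also have read other copies, which the probe names do not resolve.

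Groups within the set were set beside the whole. Of the 7 tested members with a zinc-binding finger in the ribosome's structure, 5 had a positive difference in deficient minus control (median 0.23). In supplemented minus deficient 6 had a negative one (median -0.26). Over all 77 members, 67 were positive in the first (median 0.18) and 74 negative in the second (median -0.19). Of all probes, 49.3% were positive in the first and 49.9% in the second. The 7 were Rpl36a, Rps29 (0.27), Rpl37a (0.27), Rpl34 (0.23), Rps27a (0.16), Rps27 (-0.063) and Rps26 (-0.17), with 0 called by limma in any comparison. At an unadjusted p under 0.05 there was 1, Rpl36a, in deficient minus control, where 1.87% of all probes were higher. Rps29, of the small subunit, stood at 9.02, 8.76, 9.38, 8.95 and 8.58 in deficient tumours and at 8.64, 8.57, 8.58, 8.78 and 8.77 in controls, which overlap. Rpl34, of the large subunit, stood at 7.49, 7.43, 7.24, 7.33 and 7.43 against 7.45, 6.96, 6.82, 7.08 and 7.46, so that 2 controls lay within the range of the deficient tumours. Rps27a, made as a fusion with ubiquitin, had its lowest level, 7.57, in supplemented replicate 4, with 8.17 to 8.87 elsewhere.

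Proteins that bind Mdm2 formed the second group. All 6 tested, Rps7, Rps14 (0.31), Rpl23 (0.30), Rps3 (0.28), Rpl5 (0.17) and Rpl11 (0.15), had a positive difference in deficient minus control, with a median of 0.29. All 6 had a negative one in supplemented minus deficient, with a median of -0.27. Over all 77 members, 67 were positive in the first (median 0.18) and 74 negative in the second (median -0.19). The group thus had the direction of the whole set. Of the 6, 0 passed the limma test. Rps7 had an unadjusted p under 0.05 in the first comparison, where 1.87% of all probes were higher at that level. Rps14 had one in the second, where 3.74% were lower. Rpl5, which carries 5S ribosomal RNA with Rpl11, had levels of 7.39, 7.09, 7.38, 6.61 and 7.29 in deficient, 7.22, 6.79, 6.60, 7.04 and 7.26 in control and 7.49, 7.07, 7.07, 6.62 and 6.97 in supplemented tumours, which overlap throughout. Rpl11 turned negative, at -0.072, with the deposited values. Of Mdm2, its relative Mdm4 and the cell cycle inhibitor Cdkn1a, 0 passed. Cdkn1a differed by -0.61 in deficient minus control and 0.60 in supplemented minus deficient, and Mdm2 by -0.26 and 0.28. Mdm4 went the other way, at 0.10 and -0.11.

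The stalk proteins, which recruit the GTP-binding factors of translation, were Rplp0, Rplp1 and Rplp2. Rplp1 stood at 11.00, 10.19, 10.70, 10.26 and 10.33 in deficient tumours, 10.28, 10.05, 9.76, 9.95 and 10.71 in controls and 10.48, 10.07, 10.47, 10.15 and 10.16 in supplemented tumours. Its difference of 0.34 in deficient minus control had a 95% interval from -0.091 to 0.78. Rplp2 differed by 0.20 and Rplp0 by -0.019. Of genes with a paralogue, Rpl22l1, the paralogue of Rpl22, differed by 0.043, with a lowest level of 2.99 in supplemented replicate 4, and the X-linked Rps4x by 0.22.

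Members with and without the pyrimidine start were set side by side, without a test. The 23 with a C and 4 pyrimidines at the annotated start had a median difference of 0.20 in deficient minus control, 18 of them positive, and -0.23 in supplemented minus deficient. For the 38 others these were 0.16, with 35 positive, and -0.17. The median SDs were 0.25 and 0.24. Among the sequences printed above, Rps6 and Rpl13a, with the highest differences of the members in deficient minus control, lack the element at the annotated base, and Rps26, with the lowest there, has it. In supplemented minus deficient the lowest member was Rpl23a (-0.52). An annotated start can lie some bases from the one used in these tumours.

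Of the pathway outside the set, the ribosomal proteins that carry other names are described first. Fau differed by 0.22 in deficient minus control and -0.22 in supplemented minus deficient, and Rack1, a scaffold protein on the small subunit, by -0.073 and 0.11. The 11 elongation genes had medians of 0.096 in deficient minus control (8 positive), 0.029 in supplemented minus control (7 positive) and -0.062 in supplemented minus deficient (5 positive). Tpt1, a growth-related messenger with a TOP element, differed by 0.25 in the first.

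Genes that act before or beside the finished ribosome come next. Of 29 tested initiation genes, 16 were positive in deficient minus control (median 0.056), 24 in supplemented minus control (0.11) and 17 in supplemented minus deficient (0.064). Eif3j, a loosely bound subunit of initiation factor 3, differed by 0.46 in supplemented minus control, and Eif1, which guards start codon choice, by 0.33 in supplemented minus deficient. Of 41 tested ribosome biogenesis genes, 26, 31 and 25 were positive, with medians of 0.064, 0.070 and 0.008. Utp3, of the small-subunit processome, differed by 0.50 in deficient minus control, the nucleolar transcription factor Ubtf by 0.40, and Mybbp1a by -0.55 in supplemented minus deficient.

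The growth regulators that act on these messengers, 12 of 16 tested, had medians of -0.13, -0.041 and 0.015, with 5, 6 and 7 positive. Myc, which drives transcription of ribosomal genes, differed by 0.49 in deficient minus control and by 0.31 in supplemented minus control, and Akt1 by -0.38 in the former. In these 6 lists limma called 0 genes in any comparison. At an unadjusted limma p under 0.05 there were 2 biogenesis genes and Cdkn1a in deficient minus control, and Eif3j and the kinase Eef2k in supplemented minus control. In supplemented minus deficient there were 2 initiation genes, 2 biogenesis genes and Cdkn1a. The lists held 11, 29, 41, 12, 4 (with Cdkn1a) and 3 tested genes. Of all probes, 1.87% were higher and 2.05% lower at that level in the first comparison. The shares were 0.828% and 1.15% in the second, and 3.31% and 3.74% in the third. No result about the lists was drawn from these counts.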

How the data were processed

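Per the file headers, the deposited scanner output holds spot intensity after background subtraction and detrending, made with Feature Extraction 11.5.1.1 (the submitters' processing notes name 15.5). A table of log2 values that the authors deposited, whose normalization is not given in the sources used here, served as an alternative; its array medians were 7.09 to 7.10. One free-text label describes mammary gland at day 21; the tissue and age fields, which give tumours at 180 days, were followed.

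Levels were log2 processed intensity minus the array's 75th percentile over non-control spots. Spots with outlier flags were dropped and the remaining spots of each probe averaged. Probes were named by accession through RefSeq (GRCr8), without coordinates. Probes well above background on at least 5 arrays were fitted on the diet means with lmFit and eBayes (limma 3.58.1, R 4.3.3; 12 residual degrees of freedom; two-sided p-values; Benjamini-Hochberg over 21011 probes; threshold 0.05), after tests on simulated data. The number of arrays limits the precision; 0 spots were saturated. Normexp used the median signal, since the files hold no mean signal column.

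Members and lists were chosen with earlier results of these data known. Members named were the 5 with the smallest p in each direction and comparison, and the 6 most and 6 least variable. Also named were the members of fixed groups, those whose probes disagree in sign, and those not tested. Of other lists, at most 2 genes per comparison were named with values, with Mdm4 in addition. A few genes that this rule or the lists take are not reported here by name, but stay in the counts and medians. Members at the ends of single tumours, Rpl35, Rps18 and others, were named after their values were seen. Alternatives were other scalings, background handling, filters, slide, replicate and brightness terms, array weights, probe averaging and each array left out; centring on bright probes was added after the data were seen. Same-numbered tumours did not deviate together (median r = -0.08, from -0.28 to 0.22 over 15 pairs), which cannot exclude a pairing. Tumours numbered 1 were all on slide 1 and those numbered 2 all on slide 2. Replicate numbers were not used to pair samples in the main fit.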

Additional observations from a re-analysis of the deposited data

Results flagged for a closer look

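Of 234 groups of 5 levels, 19 (8.12%) held a tumour whose gap to its nearest neighbour was over 0.71 of the group's range; chance flags about 1 in 20. Of these, 17 are given here. More of them were in deficient replicate 3 than in any other tumour. It was the highest deficient tumour for Rpl23a (6.38, next 5.56), Rpl24 (7.97, next 7.29), Rpl30 (7.55, next 6.94), Rps16 (9.45, next 9.12), Rps18 (9.33, next 8.56) and Rps3a (9.16, next 8.57). It was the lowest for Rps26 (3.82, next 5.67) and for the brightest probe of Rpl36al1 (6.04, next 6.86). The other tested probe of Rpl36al1 read 7.08 in it and was not low. Among the other deficient tumours, replicate 2 was low for Rpl28 (5.23, next 5.75).

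Among controls, replicate 5 was high for Rpl35 (9.44, next 8.92) and Rps15 (5.40, next 4.98), and replicate 2 low for Rps20 (7.73, next 8.16). Among supplemented tumours, replicate 1 was high for Rps25 (6.56, next 6.25), Rps27 (7.37, next 6.88) and Rps6 (9.70, next 9.29), replicate 4 high for Rpl24 (7.72, next 7.24) and replicate 5 low for Rpl23a (4.79, next 5.14). Members of the set share the arrays, so these flags are not independent of one another.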

How the results depend on the processing

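Over 29 alternatives, limma called 0 members in each of the 3 comparisons, the F test and the slope, with lowest adjusted p of 0.838, 0.968, 0.487, 0.846 and 0.451. The medians ran from 0.052 to 0.24 in deficient minus control, from -0.087 to 0.047 in supplemented minus control and from -0.26 to -0.057 in supplemented minus deficient, and the median SD from 0.19 to 0.28. With the replicate number as a block (replicate block) the medians were 0.18, -0.024 and -0.19 and the median SD 0.23; the block changed no call. Leaving out single tumours gave 0.12 to 0.24, -0.069 to 0.047 and -0.26 to -0.14. With no filter on dim probes, all probes, those at background included, had medians of 0.11 and -0.14 in the comparisons with the deficient group. The members, well above background on all 15 arrays, stood at 0.18 and -0.19 there. In the main fit, the 11470 probes well above background on all 15 arrays had medians of 0 and 0.019. Without the 3 dimmest arrays (deficient replicates 1 and 4 and control replicate 2) the members stood at 0.13 and -0.18. Of 3654 values of 42 members taken by the naming rule, 228 changed sign and 0 became called. The causes were not tested.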
